A study of Saccharomyces cerevisiae with 7 samples.

Results

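The genes described here encode the 6 subunits of yeast translation initiation factor 3 (eIF3): RPG1 (eIF3a), PRT1 (eIF3b), NIP1 (eIF3c), TIF34 (eIF3i), TIF35 (eIF3g) and HCR1 (eIF3j). They were taken by symbol from the counted features, and all 6 were found among the 6341 features of each library. All 6 passed the filter on low counts in every comparison. They are also referred to as long (RPG1, NIP1 and PRT1, 2292 to 2895 coding bases) and short (TIF34, TIF35 and HCR1, 798 to 1044 coding bases).

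In Saccharomyces cerevisiae, eIF3 is the largest of the initiation factors. It binds the small ribosomal subunit, helps recruit the initiator tRNA and the mRNA, and takes part in scanning for the start codon. Rpg1, Nip1 and Prt1 form its body: Rpg1 is the elongated scaffold, Nip1 contacts eIF1 and eIF5, and Prt1 holds an RNA recognition motif and a beta-propeller. Tif34, itself a WD-repeat propeller, and Tif35, which carries an RNA recognition motif, join through the C-terminal part of Prt1. Hcr1 is the loosely held subunit and is not essential for growth, while the others are.

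The libraries hold RNA bound to ribosomes, so a value here is the level of a subunit's mRNA on a class of ribosomes and not the amount of the protein. Minus_Rps26 (3 libraries) is mRNA on TAP-tagged ribosomes lacking Rps26, a small-subunit protein at the mRNA exit channel, eluted from IgG beads by TEV protease. Plus_Rps26 (3 libraries) is mRNA on the untagged, Rps26-containing ribosomes of the same strain, which stayed in the flowthrough of the beads and were collected from 10% to 50% sucrose gradients. That strain, in BY4741 (an S288C derivative), has the alleles HisMX6::pGAL1-Rps3 and NatMX6::pGAL1-Rps26A, the disruption Rps26B::KanMX6 and the plasmid pCM189--Rps3-TAP. It makes untagged Rps3 and Rps26 from the galactose promoter alone, with RPS26B disrupted, and was grown in galactose with 0.2 µg/ml doxycycline before 4 h in glucose without it. Rps3_TAP (1 library) is mRNA on the tagged ribosomes of another strain, BY4741 Rps3-TAP::HisMX6, grown to mid-log phase in glucose with no doxycycline. All cultures received 100 µg/ml cycloheximide before harvest. Minus_Rps26 and Plus_Rps26 differ in the tag and the purification as well as in Rps26, and these cannot be told apart. The series names Kozak sequence elements, the bases around the start codon, as its subject.

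Total counts ran from 9605899 to 21405499 per library. Levels are given as CPM, counts scaled for the depth of each library, here with edgeR's trimmed-mean factors over the 7 libraries. RPS26A, the targeted gene, averaged 34.9 ± 9.37 CPM over the Minus_Rps26 libraries, against 85.3 ± 32.9 CPM over those of Plus_Rps26 (SD, n = 3 each), and stood at 10140 CPM in Rps3_TAP. The share of counts in noncoding features was 1.66% to 6.98% in Minus_Rps26 and 7.03% to 26.7% in Plus_Rps26, against 13.4% in Rps3_TAP. Within Plus_Rps26 the noncoding share was 7.03%, 17.4% and 26.7% in replicates 1, 2 and 3. Ribosomal protein genes held 28.7%, 39.3% and 37.3% of the protein-coding counts in these libraries. Values that replicate 1 of Plus_Rps26 moved are also given without it, and some without replicate 3. Replicate 1 of Minus_Rps26 had a higher noncoding share than the rest of its group, at 6.98% against 2.37% and 1.66%. The labels give no date or batch.

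The bases just before the start codon are shown because they are the element that the series is about. The authors' deposited column gives 20 bases before each start codon, printed 5′ to 3′ with positions -4 to -1 in capitals (-1 is the base next to the start codon).
RPG1: aacgcccaggaaacatCAAG
NIP1: caagcccgagatctacGAAA
PRT1: ttttggatagcgggaaACTA
TIF34: aaatagcacagacaagGAAT
TIF35: accaaagaccaccaggAATA
HCR1: aaaaaaaaaaagtaatAAAA

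At -3, the position that carries most of the yeast start context, 5 of the 6 subunit genes had A and PRT1 had C. Among the 5684 nuclear protein-coding genes with a deposited context, 60.8% had A and 8.7% had C there. The last 4 bases of HCR1, AAAA, were shared by 6.3% of all contexts, whereas the last 4 of PRT1, ACTA, were shared by 0.51%. The members also differed along the whole window: A made up 85% of the 20 bases before HCR1 and 30% of those before PRT1, with a median of 40% over all contexts.

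All 6 genes lie on nuclear chromosomes, are single uninterrupted reading frames and overlap no other annotated gene (sacCer3, coordinates of the R64 RefSeq annotation). RPG1 (YBR079C) is at chrII:395383-398277, NIP1 (YMR309C) at chrXIII:892988-895426 and PRT1 (YOR361C) at chrXV:1015361-1017652. TIF34 (YMR146C) is at chrXIII:557481-558524, TIF35 (YDR429C) at chrIV:1324477-1325301 and HCR1 (YLR192C) at chrXII:538792-539589. Of 5873 nuclear protein-coding genes, 90.3% had a shorter coding length than RPG1, 85.2% than NIP1 and 83.2% than PRT1. The shares below the short members were 41.4% for TIF34, 29% for TIF35 and 27.7% for HCR1.

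The scaffold gene RPG1 had 474, 760.0 and 703 CPM in Minus_Rps26 replicates 1, 2 and 3, against 388, 311 and 308 CPM in Plus_Rps26 and 402 CPM in the Rps3_TAP library. Every Minus_Rps26 library was above every Plus_Rps26 library, and Rps3_TAP lay just above the highest flowthrough value. NIP1 had 685, 788 and 729 CPM in Minus_Rps26, against 650.4, 538 and 608 CPM in Plus_Rps26 and 416 CPM in the Rps3_TAP library. The groups did not overlap here either, but the gap between 685 and 650.4 CPM was small. PRT1 had 767, 1064 and 797 CPM in Minus_Rps26, against 898, 1143 and 1382 CPM in Plus_Rps26 and 599 CPM in the Rps3_TAP library. It was the most abundant member by CPM in every library and the one member with a lower mean in Minus_Rps26 than in Plus_Rps26, although the groups overlapped.

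TIF34 had 287, 372 and 317 CPM in Minus_Rps26, against 380.1, 297 and 226 CPM in Plus_Rps26 and 289 CPM in the Rps3_TAP library. TIF35 had 290.4, 319 and 257 CPM in Minus_Rps26, against 384, 205 and 122 CPM in Plus_Rps26 and 159 CPM in the Rps3_TAP library. HCR1 had 156, 195 and 188 CPM in Minus_Rps26, against 247, 116 and 58.6 CPM in Plus_Rps26 and 125 CPM in the Rps3_TAP library. For all 3 short members the flowthrough libraries lay on both sides of the Minus_Rps26 libraries: Plus_Rps26 replicate 1 was the highest of the 7 libraries and replicate 3 the lowest. The spread among replicates differed accordingly. The highest library over the lowest was 1.25 for HCR1, 1.24 for TIF35 and 1.30 for TIF34 within Minus_Rps26, against 4.21 for HCR1, 3.14 for TIF35 and 1.68 for TIF34 within Plus_Rps26.

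**Figure D1:**
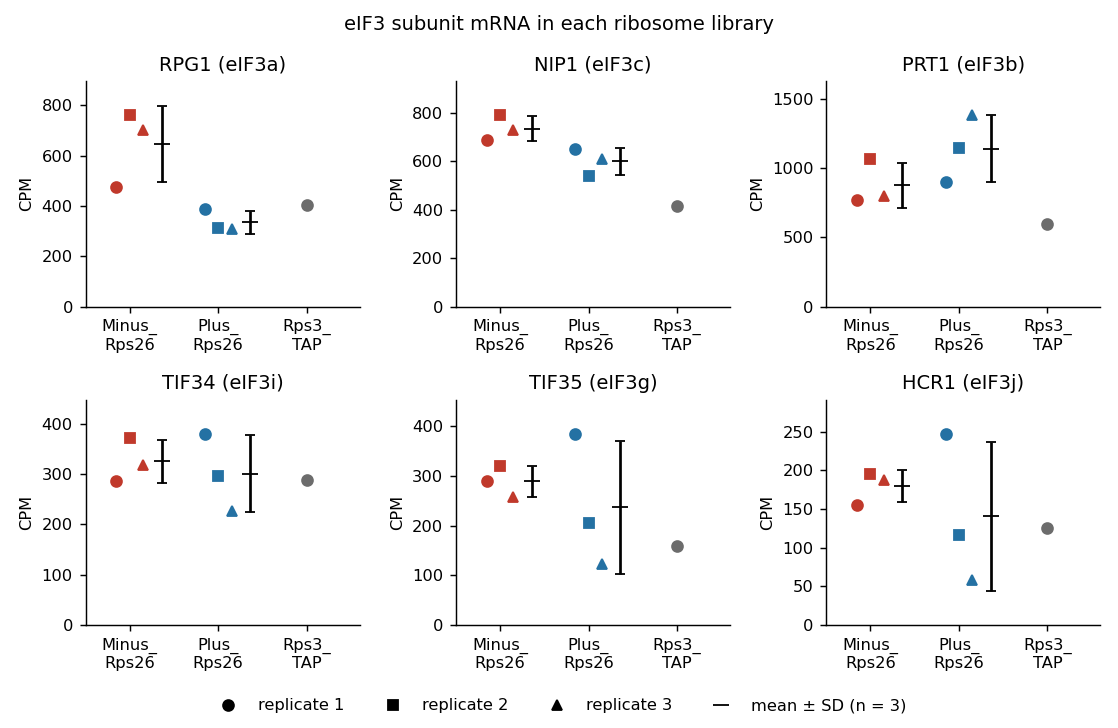
Level of each eIF3 subunit mRNA in CPM (vertical axis, from 0) in the 3 Minus_Rps26, 3 Plus_Rps26 and 1 Rps3_TAP libraries, with symbols for the replicate number and bars for mean ± SD (n = 3). RPG1 sits higher in all Minus_Rps26 libraries (474 to 760.0 CPM) than in Plus_Rps26 (308 to 388 CPM), and the flowthrough values of HCR1 fan out between 58.6 and 247 CPM.

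Counting error was small beside this spread. The members had 561 to 25598 counts per library, and the 95% Poisson interval was at most 8.63% wide on either side. Summed over the 6 genes, the level was 2659, 3498 and 2990 CPM in Minus_Rps26, against 2948, 2609 and 2705 CPM in Plus_Rps26 and 1990.0 CPM in the Rps3_TAP library. The sums of the first 2 groups overlapped under trimmed-mean scaling, and Rps3_TAP was below all of them. As shares of all counts they were 0.384%, 0.491% and 0.428% in Minus_Rps26, 0.347%, 0.198% and 0.1695% in Plus_Rps26 and 0.122% in Rps3_TAP. On that scale the first 2 groups did not overlap. Total-count scaling also moved the median log2 fold change of all features in Minus_Rps26 over Plus_Rps26 to 0.75, against 0.027.

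Levels of different genes are compared per length, as CPM per kilobase of coding length. In Minus_Rps26 the order of the group means was PRT1 (382), TIF35 (350.1), TIF34 (312), NIP1 (301), HCR1 (225) and RPG1 (223 CPM per kilobase). In that order, only NIP1 and HCR1 were neighbours whose libraries did not overlap. In Plus_Rps26 the order was PRT1 (498), TIF34 (288), TIF35 (287), NIP1 (246), HCR1 (176) and RPG1 (116 CPM per kilobase). There, PRT1 stood above TIF34 in every library, and each other pair of neighbours overlapped. In the single Rps3_TAP library TIF34 (277) and PRT1 (261) led and HCR1 (157) and RPG1 (139 CPM per kilobase) came last.

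The mRNAs of the 6 subunits were at more even levels in each eluate than in any of the flowthroughs. Whether other sets of genes with like lengths differ in the same way was not tested. The highest member was 2.15, 1.90 and 1.48 times the lowest per length in Minus_Rps26 replicates 1, 2 and 3. It was 3.47, 4.65 and 8.21 times the lowest in Plus_Rps26, against 1.99 times in Rps3_TAP. PRT1 alone made up 20.9%, 22.8% and 20% of the 6 genes' summed level per length in Minus_Rps26, against 20.3%, 33.1% and 43.2% in Plus_Rps26, with 21.8% in Rps3_TAP. The shares in Plus_Rps26 replicates 2 and 3 were above those of the other 5 libraries.

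**Figure D2:**
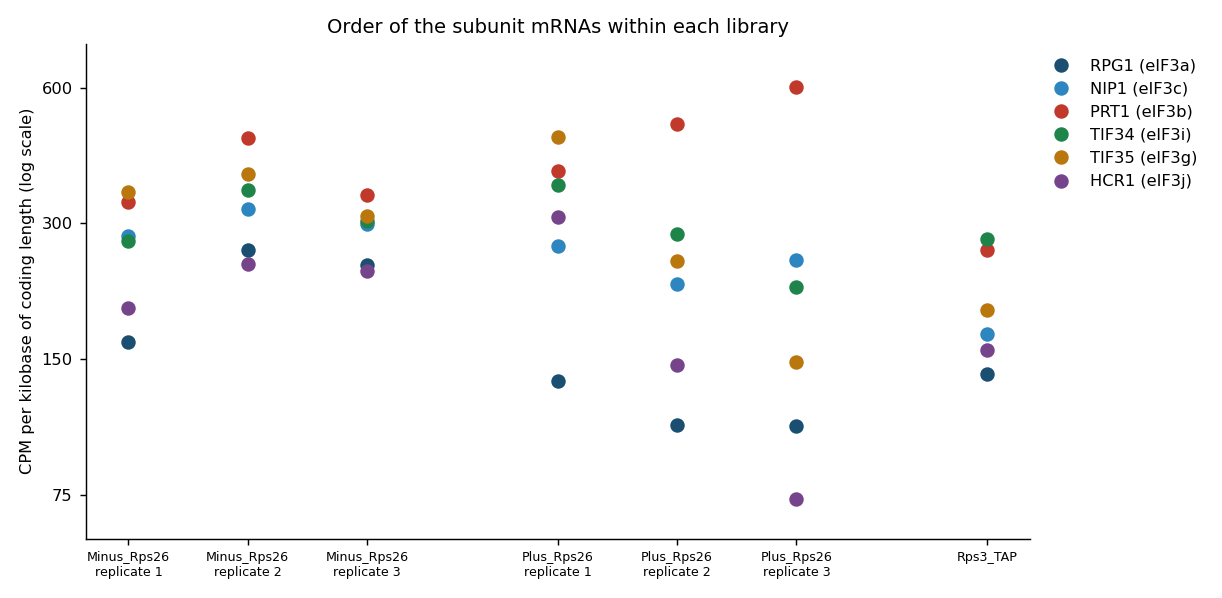
CPM per kilobase of coding length (log scale) of the 6 subunit mRNAs in each of the 7 libraries, one colour per gene. The members lie within a factor of 1.48 to 2.15 in the Minus_Rps26 libraries and spread over a factor of 3.47 to 8.21 in Plus_Rps26, with PRT1 at the top and RPG1 or HCR1 at the bottom of Plus_Rps26 replicates 2 and 3.

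Setting Minus_Rps26 against Plus_Rps26 addresses the question which mRNAs the ribosomes lacking Rps26 carry more or less of than the other ribosomes of these cells. RPG1 showed the greatest difference of the 6, with 646 ± 151 CPM over the Minus_Rps26 libraries, against 336 ± 45.6 CPM over those of Plus_Rps26 (SD, n = 3 each). That is a log2 fold change of 0.94 ± 0.30 (SE), or 1.92-fold, with a 95% interval of 0.28 to 1.60. Its adjusted p was 0.0533 by edgeR's quasi-likelihood test with Benjamini-Hochberg adjustment, just outside the threshold of 0.05. PRT1 averaged 876 ± 164 CPM over the Minus_Rps26 libraries, against 1141 ± 242 CPM over those of Plus_Rps26 (SD, n = 3 each). Its log2 fold change was -0.39 ± 0.31 (SE; adjusted p = 0.393 by edgeR), which became 0.42 when scaled by total counts alone. Total-count scaling moved the median of all features to 0.75, against 0.027 with trimmed-mean scaling, so PRT1 was below that median under both.

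None of the 6 members passed the threshold by edgeR, where 16.0% of the 5668 features tested did. At an edgeR unadjusted p under 0.05 there was 1 (RPG1), where 2121 of the 5668 features were. Of the 6, limma-voom called 0, where it called 822 of 5668 features. DESeq2 called 1, RPG1 (adjusted p = 0.0231), where it called 26.9% of features. RPG1 also passed in edgeR fits scaled by total counts alone (1.64, adjusted p = 0.0271, with 19.0% of features called) and over nuclear protein-coding genes alone (0.92, adjusted p = 0.0441, with 20.6% called). With the replicate number of the titles as a block, edgeR called no feature (1990 at an unadjusted p under 0.05). RPG1 was then at 0.92 ± 0.30 (SE, edgeR adjusted p = 0.117). Without the block, the remaining log2 fold changes were 0.29 ± 0.28 for NIP1, 0.11 ± 0.29 for TIF34, 0.28 ± 0.38 for TIF35 and 0.35 ± 0.44 for HCR1 (SE; edgeR adjusted p from 0.467 to 0.815). Their 95% intervals reached from -0.61 to 1.31 for HCR1 and from -0.54 to 0.75 for TIF34, so changes of these sizes cannot be set aside at this number of libraries. The libraries of the groups did not overlap for 2 of the 6 genes, RPG1 and NIP1, both higher in Minus_Rps26. Among all features 38.3% did not overlap, 21.0% being higher in Minus_Rps26. The median log2 fold change of the 6 was 0.29, beside 0.027 over all features tested.

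Plus_Rps26 replicate 1 decided some of these calls. Without that library, RPG1 was called at a log2 fold change of 1.00 ± 0.31 (edgeR adjusted p = 0.0188) and HCR1 at 0.97 ± 0.33 (edgeR adjusted p = 0.0258), but so were 43.6% of the features tested. Both were also called without the 2 libraries numbered 1, an alternative added after the data were seen, where 47.0% of features were. Without Plus_Rps26 replicate 3, the log2 fold changes of TIF34, TIF35 and HCR1 were -0.10, -0.066 and -0.058.

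The authors' deposited table for this comparison gave RPG1 a log2 fold change of 0.82 ± 0.28 (SE) with an adjusted p of 0.0189, among 29.2% of features called there. In the same authors' deposited table the other 5 subunits were not called, with PRT1 at -0.42 (adjusted p = 0.265) and NIP1 at 0.21 (adjusted p = 0.562).

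Per the protocol, eluate and flowthrough were taken from one lysate, so ratios were formed between libraries of the same number. The flowthrough numbers are those of the titles, and the description of Plus_Rps26 replicate 2 repeats the number of replicate 1, so which of these 2 goes with which eluate is uncertain. RPG1 had log2 ratios of Minus_Rps26 over Plus_Rps26 of 0.29, 1.29 and 1.19 in replicates 1, 2 and 3, and PRT1 had -0.23, -0.10 and -0.79. NIP1 had 0.075, 0.55 and 0.26. RPG1 and NIP1, whose groups do not overlap, are above 0 under any numbering. The sign of PRT1 is not fixed in this way, since its 1064 CPM in Minus_Rps26 replicate 2 was above the 898 CPM of Plus_Rps26 replicate 1. The 3 short members changed sign between the numbered replicates: HCR1 had -0.67, 0.75 and 1.68, TIF35 had -0.40, 0.64 and 1.07, and TIF34 had -0.41, 0.32 and 0.49. Their negative values all used Plus_Rps26 replicate 1, the library where these 3 mRNAs were highest.

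**Figure D3:**
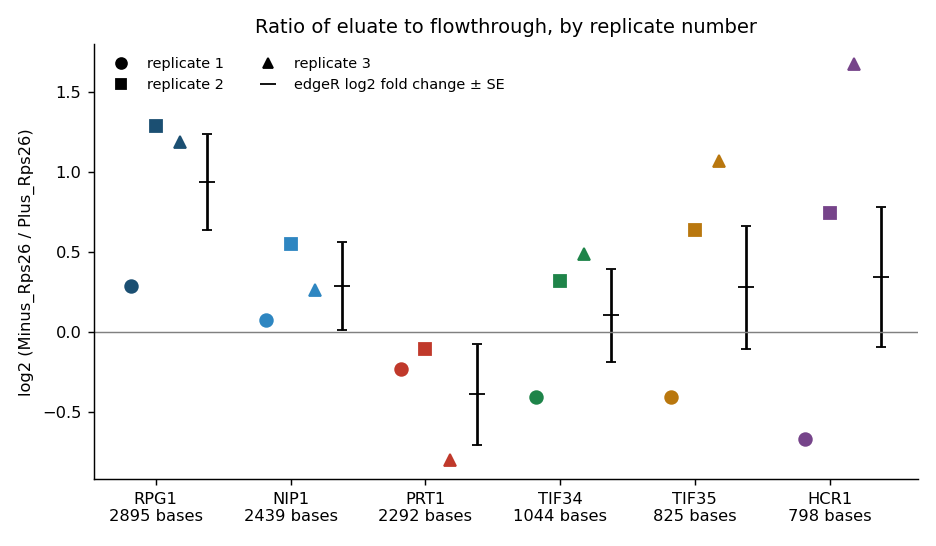
Log2 ratio of Minus_Rps26 to Plus_Rps26 for each subunit mRNA and replicate number as in the titles (symbols), with the edgeR log2 fold change ± SE as a bar, genes from left to right with their coding length. RPG1 is above 0 and PRT1 below 0 in all 3 replicates under trimmed-mean scaling (the fitted PRT1 value is 0.42 with total counts alone), while HCR1, TIF35 and TIF34 are below 0 in replicate 1 and above 0 in replicates 2 and 3.

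Coding length went with this comparison across all genes. The log2 fold change correlated with coding length at Spearman's rho = 0.688 across 5534 nuclear protein-coding genes, with 0.596, 0.647 and 0.589 in the single replicates. Genes share libraries and are not independent replicates, so no p is given. In bins of about equal numbers of genes, the median log2 fold change was 0.64 at a median length of 2265 bases, near that of PRT1, and 0.84 at 2610 bases, between the lengths of NIP1 and RPG1. It was -0.41 at a median length of 824.5 bases, near those of TIF35 and HCR1. RPG1, the longest subunit gene, lay with genes of its length. PRT1, at -0.39, lay below the lower quartile of its bin (0.33), and NIP1, at 0.29, lay below the quartiles of 0.33 and 0.55 on either side of its length. TIF35 and HCR1, at 0.28 and 0.35, lay above the upper quartile of their bin (0.032).

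With the length trend removed from each library before the fit, RPG1 was at 0.057 ± 0.24 and PRT1 at -1.05 ± 0.31 (SE; edgeR adjusted p = 0.902 and 0.194). NIP1 changed sign, to -0.42 ± 0.24 (edgeR adjusted p = 0.351). The short members were then at 0.29 (TIF34), 0.63 (TIF35) and 0.72 (HCR1), with edgeR adjusted p from 0.365 to 0.541. On this scale 4.42% of the 5519 genes lay below PRT1, and 92.1% lay below HCR1 and 88.7% below TIF35. No gene of the 5519 passed the threshold with the trend removed by edgeR, and 1032 had an unadjusted p under 0.05, PRT1 (edgeR unadjusted p = 0.00638) among them. No other tool was run with the trend removed. What the length dependence comes from was not tested.

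**Figure D4:**
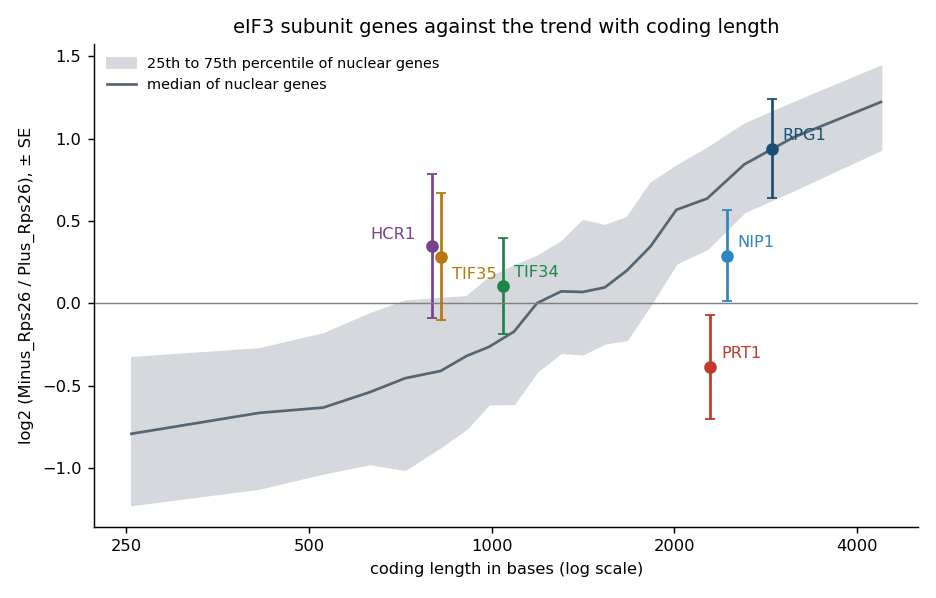
Log2 fold change of Minus_Rps26 over Plus_Rps26 against coding length (log scale) for the 6 subunit genes (points, ± SE), with the median (line) and the 25th to 75th percentiles (band) of nuclear protein-coding genes in bins of length. RPG1 lies in the band, PRT1 (-0.39 ± 0.31) and NIP1 below it, and the 3 short members lie above the line.

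Ratios of 2 members within one library do not depend on how the library is scaled. Of the 15 pairs of subunit genes, 4 had ratios that did not overlap between Minus_Rps26 and Plus_Rps26, and RPG1 or PRT1 was in each of them. Over all pairs of 5531 nuclear protein-coding genes the share without overlap was 35.9%, so the number of such pairs is not a result about the subunits. RPG1 over PRT1, per length, was 0.489, 0.566 and 0.698 in Minus_Rps26, against 0.342, 0.215 and 0.176 in Plus_Rps26, with 0.531 in Rps3_TAP. The scaffold subunit's mRNA therefore stood 2.46-fold higher relative to that of PRT1 in Minus_Rps26 (geometric means). RPG1 over NIP1 was 0.583, 0.812 and 0.812 in Minus_Rps26, against 0.503, 0.487 and 0.427 in Plus_Rps26, with 0.813 in Rps3_TAP. RPG1 over TIF34 was 0.596, 0.737 and 0.799 in Minus_Rps26, against 0.368, 0.377 and 0.491 in Plus_Rps26, with 0.502 in Rps3_TAP. PRT1 over NIP1 was the pair with the lower ratio in Minus_Rps26, at 1.19, 1.44 and 1.16, against 1.47, 2.26 and 2.42 in Plus_Rps26, with 1.53 in Rps3_TAP. RPG1, PRT1 and NIP1 are all long genes, but at 2895, 2292 and 2439 coding bases they differ in length. Around these lengths the median log2 fold change of nuclear genes (Minus_Rps26 over Plus_Rps26) was 0.64 at 2265 bases and 0.84 at 2610 bases. The length trend was not removed from these ratios. No p is given for the pairs, and 3 libraries against 3 could not go below 0.1 in an exact two-sided permutation test.

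The summed level per length of the 3 long members over that of the 3 short members showed no such separation. Its log2 value was -0.077, 0.089 and 0.064 in Minus_Rps26, against -0.52, 0.29 and 1.13 in Plus_Rps26, with -0.13 in Rps3_TAP. The Plus_Rps26 libraries lay on both sides of all the others.

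The comparisons with Rps3_TAP set each class of ribosome against tagged ribosomes from cells whose Rps26 was not depleted. Both use the same single Rps3_TAP library, which is assumed to vary like the other groups, and strain and growth differ in both. Minus_Rps26 differs from Rps3_TAP in Rps26 as well. Plus_Rps26 ribosomes contain Rps26, and differ from those of Rps3_TAP in the tag and the purification. These differences cannot be told apart. In Minus_Rps26 over Rps3_TAP all 6 log2 fold changes were positive, from 0.17 ± 0.42 for TIF34 to 0.82 ± 0.41 for NIP1 and 0.86 ± 0.58 for TIF35 (SE). Of all 5815 features tested, 3191 were positive. None of the 6 passed the threshold (edgeR adjusted p from 0.153 to 0.775), where 26.2% of 5815 features did. None of them had an edgeR unadjusted p under 0.05, where 2414 of 5815 features did. DESeq2 and limma-voom called 0 of the 6, where they called 1930 of 6015 and 1404 of 5815 features. RPG1 was at 0.68, PRT1 at 0.55 and HCR1 at 0.52. Scaled by total counts alone, RPG1 (1.90), PRT1 (1.76) and NIP1 (2.03) were called, with 30.8% of features, where the median of all features was 1.39. The median of the 6 was 0.62 with trimmed-mean scaling, beside 0.18 over all features. For 5 of the 6 genes every Minus_Rps26 library was above the Rps3_TAP library, and TIF34 had 287 CPM in the lowest of them against 289 CPM in Rps3_TAP. Every Minus_Rps26 library was above Rps3_TAP for 44.3% of all features. With the length trend removed, the values of RPG1, PRT1 and NIP1 turned to -0.31, -0.25 and -0.034, while TIF34, TIF35 and HCR1 were at 0.38, 1.35 and 1.05 (edgeR adjusted p = 0.519, 0.135 and 0.297).

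In the authors' deposited table for this comparison, NIP1 had a log2 fold change of 0.68 ± 0.27 (SE, adjusted p = 0.0261) and TIF35 of 0.81 ± 0.27 (SE, adjusted p = 0.00733). Both passed 0.05 in the authors' deposited table, as did 46.5% of its features. The normalized sheet deposited beside it holds the same values in the columns named for replicates 1 and 3 of Minus_Rps26, in 5898 of 5898 rows, and both columns follow the counts of replicate 1. The base mean in the authors' deposited table equals the mean over that sheet's 4 columns in 5898 of 5898 rows (within 1e-06). With DESeq2 on the 3 different Minus_Rps26 libraries and Rps3_TAP, an analysis added after the data were seen, the adjusted p was 0.0817 for NIP1 and 0.0755 for TIF35, and 42.0% of features were called.

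In Plus_Rps26 over Rps3_TAP, PRT1 had the greatest difference, with 1141 ± 242 CPM in Plus_Rps26 (SD, n = 3) against 599 CPM in Rps3_TAP. Its log2 fold change was 0.93 ± 0.47 (SE, edgeR adjusted p = 0.285), with a 95% interval from -0.10 to 1.96. RPG1 was at -0.26 ± 0.42, which became 0.26 with total counts alone, against a median of all features of 0.56 on that scale. NIP1 was at 0.52, TIF35 at 0.58, HCR1 at 0.17 and TIF34 at 0.060. Without Plus_Rps26 replicate 1, TIF35 was at 0.051, HCR1 at -0.51 and TIF34 at -0.13. None of the 6 passed (edgeR adjusted p from 0.285 to 0.952), where 1.48% of 5815 features did. None of them had an edgeR unadjusted p under 0.05, where 1207 of 5815 features did. DESeq2 and limma-voom called 0 of the 6, where they called 426 of 6134 and 50 of 5815 features. The authors' deposited table for this comparison called none of them either, with PRT1 at 0.81 (adjusted p = 0.358), where 3.63% of its features were called.

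The other initiation factors give the setting for the subunits. Of the 24 listed, 6 passed in Minus_Rps26 over Plus_Rps26, 2 higher and 4 lower, where 16.0% of all features passed, 8.1% being higher and 7.9% lower. Their median log2 fold change was -0.27. TIF4632, which encodes the second form of the scaffold eIF4G, rose by 1.52 ± 0.39 on the log2 scale, at 105 ± 13.9 CPM over the Minus_Rps26 libraries, against 36.7 ± 22.8 CPM over those of Plus_Rps26 (SD, n = 3 each; edgeR adjusted p = 0.0365). FUN12, which encodes the subunit-joining GTPase eIF5B, rose by 1.13 ± 0.33 (SE, edgeR adjusted p = 0.0451). Both are long genes, as RPG1 is.

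The 4 that fell are short genes. SUI1, which encodes the start-codon fidelity factor eIF1, had 214 ± 28.7 CPM over the Minus_Rps26 libraries, against 480.4 ± 178 CPM over those of Plus_Rps26 (SD, n = 3 each). The log2 fold change of SUI1 was -1.17 ± 0.32 (SE), with adjusted p = 0.0400 by edgeR. CDC33, which encodes the cap-binding protein eIF4E, was lower by edgeR at -1.42 ± 0.36 (SE, log2 scale), with adjusted p = 0.0365. The eIF5A genes HYP2 and ANB1 were at -1.32 ± 0.32 and -2.01 ± 0.56 (SE, edgeR adjusted p = 0.0357 and 0.0402). ANB1 had 148, 167 and 567 CPM in Plus_Rps26 replicates 1, 2 and 3, and its value was -1.14 without replicate 3 of that group. HYP2 and ANB1 are near-identical copies, so how reads were split between them is uncertain.

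The partners that bind eIF3 in the multifactor complex (eIF1, eIF2 and eIF5) counted 1 lower and 0 higher of 5. The other classes counted 1 higher of 4 for start site selection and subunit joining, 1 higher and 1 lower of 8 for cap binding and mRNA activation, 0 of 5 for eIF2B and 2 lower of 2 for eIF5A. With the replicate number as a block none of the 24 passed (edgeR adjusted p of the 6 from 0.117 to 0.121), although 8 had an unadjusted p under 0.05. Under the block the log2 fold changes of the 6 were 1.68 for TIF4632, 1.09 for FUN12, -1.12 for SUI1, -1.37 for CDC33, -1.31 for HYP2 and -1.89 for ANB1. With the length trend removed none passed, with 6 at an unadjusted p under 0.05, and the values were nearer to 0, at 0.74 for TIF4632, 0.19 for FUN12, -0.37 for SUI1, -0.91 for CDC33, -0.68 for HYP2 and -1.41 for ANB1. Leaving out any one of Minus_Rps26 replicates 2 and 3 or Plus_Rps26 replicates 2 and 3 also left none, where no feature was called. Of the 24, 6 or 7 then had an unadjusted p under 0.05. Leaving out Minus_Rps26 replicate 1 left 1 (FUN12), where 214 of 5684 features were called. Leaving out Plus_Rps26 replicate 1 gave 13, where 43.6% of all features were called. Scaled by total counts alone, the 4 lower genes kept their sign but were not called.

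In Minus_Rps26 over Rps3_TAP, SUI1 and HYP2 fell, by 2.34 ± 0.42 and 2.82 ± 0.41 on the log2 scale (SE, edgeR adjusted p = 0.00527 and 0.00267), where 15.6% of all features did, and no other of the 24 was called. SUI1 was not called when scaled by total counts alone (-1.12, edgeR adjusted p = 0.087) or with the length trend removed (-0.89, edgeR adjusted p = 0.103). HYP2 was called in both, at -1.60 and -1.68. HYP2 had 685 ± 103 CPM in Minus_Rps26 (SD, n = 3) against 4819 CPM in Rps3_TAP. In Plus_Rps26 over Rps3_TAP edgeR called none of the 24, with 4 at an unadjusted p under 0.05, and DESeq2, which called 6.94% of all features, called 1, HYP2. By mean CPM over the 7 libraries the 2 most abundant factors were HYP2 at -1.50 ± 0.42 (SE, edgeR adjusted p = 0.0862) and PAB1, which encodes the poly(A)-binding protein, at -0.33 ± 0.45 (SE, edgeR adjusted p = 0.715), which turned to 0.23 with total counts alone.

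**Figure D5:**
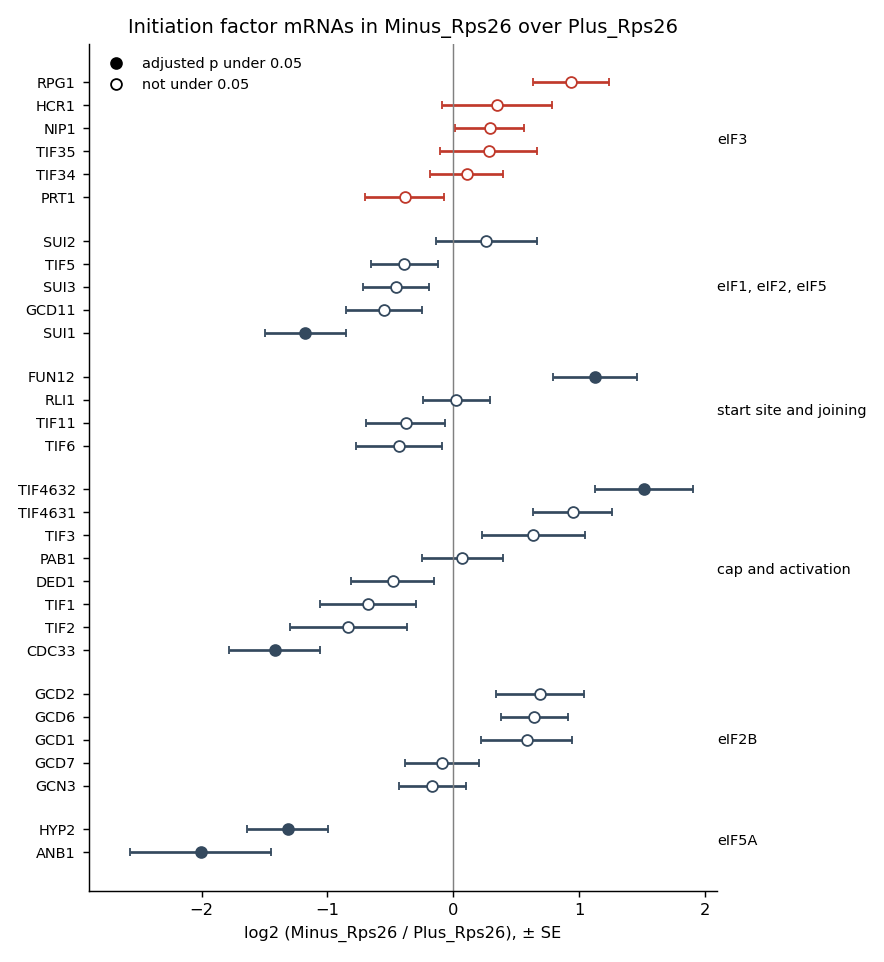
Log2 fold change of Minus_Rps26 over Plus_Rps26 (± SE) under trimmed-mean scaling for the 6 eIF3 subunit genes and 24 other initiation factor genes, in classes from top to bottom, with filled points for an edgeR adjusted p under 0.05. The 6 subunits lie between -0.39 (0.42 with total counts alone) and 0.94 with open points, while TIF4632 (1.52), FUN12 (1.13), SUI1 (-1.17), HYP2 (-1.32), CDC33 (-1.42) and ANB1 (-2.01) are filled.

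The 6 mRNAs did not share one pattern over the 7 libraries. On log2 CPM, the 3 short members followed each other, with Pearson's r of 0.938 for TIF34 and HCR1, 0.933 for TIF35 and HCR1 and 0.887 for TIF34 and TIF35. PRT1 had r of -0.30 with RPG1 and -0.47 with HCR1, and its nearest member was NIP1 at 0.345. RPG1 and NIP1 were each other's nearest member, at 0.645. These are descriptions over 7 libraries of unequal depth and composition. In Minus_Rps26 over Plus_Rps26, TIF35 and HCR1 lay above the upper quartile of genes near their length, as described above. Whether coding length bears on these correlations was not tested.

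Outside the complex there were genes that followed each member more closely. Far more genes lay outside than inside, and r was taken over 7 libraries, so a higher r outside is no result about the members. Among 5030 nuclear protein-coding genes with a mean of at least 10 CPM, the 2 most like RPG1 were SFL1 (r = 0.988) and GCD6 (0.980), and those most like NIP1 were TOD6 (0.984) and SYO1 (0.983). PRT1 was followed by YML018C (0.978) and CAF16 (0.975). TIF34 was followed by WRS1 (0.977) and SEC20 (0.975), TIF35 by NOT5 (0.991) and YJR056C (0.986), and HCR1 by CTH1 (0.989) and HRP1 (0.976). Ranked by likeness among the 5030 genes, HCR1 was 13th for TIF34 and 74th for TIF35, TIF34 was 42nd for HCR1, and NIP1 was in place 1467 for RPG1 and 1103 for PRT1.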

How the data were processed

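Ribosome-bound RNA was freed of ribosomal RNA and sequenced as stranded libraries, per the labels' protocols. The authors deposited 1 file of raw counts per library, 7 in all. The submitters' processing notes name TopHat2 2.0.9, sacCer3, DESeq and DESeq2; how reads were assigned to features, and with which strand setting, is not given in the sources used. The authors' deposited result tables hold base means, log2 fold changes, p-values and adjusted p-values, per the file headers, with the sign of the comparisons named here (r = 0.997, 0.960 and 0.903 with the fits below, across features). In the normalized sheets, each checked library's deposited values are its counts over 1 scaling factor (a signal), with 1 exception. In the sheet of Minus_Rps26 and Rps3_TAP, the column named for Minus_Rps26 replicate 3 follows the counts of replicate 1. In 1 sheet, that of Minus_Rps26 and Plus_Rps26, the columns checked equal the raw counts. Of the flowthrough columns, only that of Plus_Rps26 replicate 3 was checked, since the others could be matched to their group only.

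Each count file ends in 5 lines for reads given to no feature, which were left out. Reads outside any feature made up 3.37% to 7.48% and ambiguous reads 0.148% to 2.75% of the sum of these and the counted reads. The non-unique alignment line reads 0 in both libraries numbered 3 and 11530659 to 18980582 elsewhere. Of 6341 features, 6015 matched the RefSeq table of R64. Coding length is the annotated span, and 96.3% of spans divide by 3, so no UTRs are included.

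Tests used edgeR 4.0.16 in R 4.3.3: trimmed-mean scaling, filterByExpr, quasi-likelihood F tests, and Benjamini-Hochberg adjusted p at 0.05 over every feature tested. An SE is the absolute log2 fold change divided by the root of F. The first comparison was fitted on its own 6 libraries, and those with Rps3_TAP on all 7. The length trend was a loess curve (span 0.5) per library, entered as an offset. Alternatives were DESeq2 1.42.0, limma 3.58.1 (voom), other scalings, no filter, a replicate block, a fit of nuclear protein-coding genes and leaving out each library. The fits were first tested on simulated data.

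The series names biological replicates, and p-values measure the spread between these libraries. Replicates differed by more than counting error in every pair (chi-square per degree of freedom of 150.7 to 607.6). Plus_Rps26 replicate 2 was placed by its title, since its description repeats the flowthrough number of replicate 1. The protocol takes eluate and flowthrough from a lysate, and those of 1 title number were treated as a pair. Their deviations from the group means correlated at -0.21, 0.39 and 0.009, and those of unlike numbers at -0.48 to 0.30. The replicate block rests on this numbering, which is uncertain for Plus_Rps26 replicates 1 and 2. Intervals on counts cover counting error only.

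The members, the list of other factors, the rules and the alternatives were chosen with earlier results of these data known. The text names the 6 members in every comparison, each other factor called (or the 2 most abundant where fewer than 2 were), and for each member the most alike member and 2 other genes by Pearson's r of log2 CPM. No total RNA was analysed here, so more of an mRNA in the cells and more of it on these ribosomes cannot be told apart, nor can more cells holding it and more of it per cell.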

Additional observations from a re-analysis of the deposited data

How the results depend on the processing

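Of the members' fold changes recomputed under the alternatives, 257 kept direction and call, 10 came past the threshold and 15 changed sign. In Minus_Rps26 over Plus_Rps26, 1 member (RPG1) was called with total counts alone, with DESeq2 and with nuclear protein-coding genes alone (adjusted p 0.0271, 0.0231 and 0.0441), and RPG1 and HCR1, 2 members, without both libraries numbered 1, an alternative chosen after seeing the data (RPG1 1.20, adjusted p = 0.00685; HCR1 1.09, adjusted p = 0.0223). Over 17 alternatives the adjusted p of RPG1 ran from 0.00685 to 0.915. Leaving out 1 library gave 0 to 2 members, 0 to 13 other factors and 0 to 2495 features, against 907 features with all: 2495 without Plus_Rps26 replicate 1, 214 without Minus_Rps26 replicate 1 and 0 without any one of the other 4 (1200 to 1620 at an unadjusted p under 0.05). DESeq2 called 1552 features; without both libraries numbered 1 there were 2671 features and 14 other factors. The replicate block gave 0 features (1990 at an unadjusted p under 0.05) and 0 other factors, with RPG1 at 0.92 (adjusted p = 0.117) and RPS26A at -1.25 (adjusted p = 0.124); the block changed no member's call. The length trend removed gave 0 features and 0 other factors (NIP1 -0.42), as did both together (1056 features at an unadjusted p under 0.05; NIP1 -0.42). PRT1 was 0.42 with total counts alone, where 1042 features were called higher and 37 lower, against 459 and 448. Without Plus_Rps26 replicate 3, TIF34 was -0.10, TIF35 -0.066 and HCR1 -0.058; without Plus_Rps26 replicate 1 they were 0.25, 0.76 and 0.97.

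In Minus_Rps26 over Rps3_TAP, total counts alone, which moved the median of all features to 1.39 against 0.18, called 3 members (RPG1 1.90, PRT1 1.76, NIP1 2.03) and 6 other factors. DESeq2 called 5 other factors, DESeq2 on the 2 groups alone (chosen after seeing the data) 7 and 2473 features, and the fit without both libraries numbered 1 called 8 and 2691. The length trend removed gave 829 features, with RPG1 -0.31, PRT1 -0.25 and NIP1 -0.034. Leaving out 1 library gave 615 (without Minus_Rps26 replicate 3) to 2405 features (without Plus_Rps26 replicate 1), 870 without Minus_Rps26 replicate 2, and 2 to 6 other factors.

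In Plus_Rps26 over Rps3_TAP, features called numbered 6 with total counts alone (RPG1 0.26, PAB1 0.23), 426 with DESeq2, 50 with limma-voom (HCR1 -0.072), 141 with nuclear protein-coding genes alone, 192 with DESeq2 on the 2 groups alone, 648 without both libraries numbered 1 (TIF34 -0.12, HCR1 -0.50) and 29 (without Plus_Rps26 replicate 3; HCR1 0.54, TIF34 0.23) to 586 (without Plus_Rps26 replicate 1; TIF34 -0.13, HCR1 -0.51) with 1 library left out. Leaving out Minus_Rps26 replicates 1, 2 and 3 gave 32, 48 and 36. Other factors called numbered 1 with DESeq2, 1 without both libraries numbered 1 and 0 to 2 with 1 library left out. The difference in the log2 ratio of long to short members, Minus_Rps26 minus Plus_Rps26, was -0.27 and ran from -0.68 to 0.14 with 1 library left out. The cause of these changes was not tested. The members had 561 counts or more in each library.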
